A study of Mus musculus with 9 samples.

Results

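The comparison set osteoclasts labelled Acod1-deficient and left unstimulated (KO_CTR) against osteoclasts labelled wild-type and left unstimulated (WT_CTR). It used 6 of the 9 libraries of the series, 3 per group, taken by their column names KO_CTR and WT_CTR and numbered as the titles number them. The other 3 libraries (KO_4OI) came from cells labelled Acod1-deficient that had received 4-octyl-itaconate, a cell-permeable ester of itaconate, at 50 µM on day 1. They entered the low-count filter, the scaling and the estimate of the spread but not the contrast, and their levels are given beside those of the 2 unstimulated groups for a few genes. All cultures were mouse bone marrow cells from femur and tibia that were kept overnight with M-CSF, the macrophage growth factor, at 5 ng/ml. Those cells that did not adhere were then grown with M-CSF at 20 ng/ml plus RANKL at 10 ng/ml until RNA was taken on day 3. The labels give no strain, age or deleted part of the gene, and no statement that replicates within a group were separate mice. Each p-value therefore reflects how far these libraries varied, which can be partly technical.

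Acod1 encodes the mitochondrial enzyme that makes itaconate from cis-aconitate, an intermediate of the citric acid cycle, and it is known as a gene that activated macrophages switch on. Osteoclasts are multinucleated cells that form by fusion of myeloid precursors and resorb bone with acid and proteases. RANKL drives their formation through the transcription factor NFATc1, and interferons are known to counteract it. Type I interferons signal through the receptor IFNAR to transcription factors that raise a wide set of antiviral genes.

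Libraries held 24830149 to 35143629 counted reads, and 14264 genes passed the filter on low counts and were tested. Levels below are in CPM (reads of a gene scaled to library size), given for replicates 1, 2 and 3 in that order; they are not divided by gene length and are compared within a gene. Calls come from the quasi-likelihood test of edgeR at a Benjamini-Hochberg adjusted p of 0.05 over all genes tested. Along the first principal component of the 6 libraries, which held 53.02% of the variance, KO_CTR replicate 2 lay at 59.5, KO_CTR replicates 1 and 3 at 3.76 and 1.93, and WT_CTR replicates 1, 2 and 3 at -36.9, -30.7 and 2.38. WT_CTR replicate 3 thus lay between KO_CTR replicates 1 and 3. Among the 6 libraries, Xist, transcribed from an inactive X chromosome, had reads only in WT_CTR replicate 2 (10715 reads), so that KO_CTR held no library of that kind. That library held 0 reads of the Y-linked genes Ddx3y, Uty, Kdm5d and Eif2s3y. Each other library of the 6 held reads of all of them. By these reads WT_CTR replicate 2 came from female cells and the rest of the 6 from male cells. WT_CTR thus mixed the sexes where KO_CTR did not, and its replicates were not all from 1 mouse. The defining markers of osteoclasts were present in all 6 libraries: 13 of 13 were tested, and their summed level was 29929.6, 37201 and 31046 CPM in KO_CTR, against 26496, 27361 and 28108 CPM in WT_CTR.

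As a group, the libraries labelled Acod1-deficient held more Acod1 reads than those labelled wild-type (193 against 106). The gene (ENSMUSG00000022126) lies in mm10 on chromosome 14, 103046977 to 103056573, plus strand. It had 60, 86 and 47 reads in KO_CTR, against 24, 27 and 55 reads in WT_CTR, or 1.98, 3.600 and 1.699 CPM in KO_CTR, against 0.927, 0.889 and 1.57 CPM in WT_CTR. In raw reads the groups overlapped, since KO_CTR replicate 3 held fewer reads than WT_CTR replicate 3. In CPM they did not, although KO_CTR replicate 3 lay only narrowly above WT_CTR replicate 3 (1.699 against 1.57 CPM). Levels averaged 2.43 ± 1.02 CPM in KO_CTR and 1.13 ± 0.381 CPM in WT_CTR (SD, n = 3 each). By edgeR it missed significance (log2 fold change 1.08, SE 0.32, adjusted p = 0.127). The ratio of the summed reads, scaled to library size, was 2.03 (Clopper-Pearson 95% bounds 1.60 and 2.60, for counting error alone). Over the fits without 1 library the log2 fold change ran from 0.74 to 1.46. By DESeq2 the gene passed with an adjusted p of 0.0404. A gene's count does not tell which of its exons were read, so the genotype is given as labelled throughout.

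Between KO_CTR and WT_CTR 74 of 14264 genes passed, which is 0.519% of those tested. Of these 67 were higher in KO_CTR (0.47%) and 7 were lower (0.0491%). Without regard to the test, the 3 KO_CTR libraries all lay above the 3 WT_CTR libraries for 10.2% of genes and all below them for 9.56%. At an unadjusted p under 0.05 stood 17.8% of all genes tested, 9.18% higher and 8.58% lower, and these are the shares beside which such counts for a list are to be read. The median log2 fold change of all genes tested was -0.03. The genes that rose were mostly interferon-stimulated antiviral genes (28 of 67) and surface receptors or antigen presentation genes of myeloid cells (16 of 67), with 9 metabolic enzymes or lipid carriers, 11 other named genes and 3 predicted loci (Gm12250, Gm10693 and Gm5431, the first 2 of them annotated as pseudogenes). Those that fell included the tubulin Tubb6, the cyclin Ccnd1, the chemokine Ccl2 and the kinase Ptk2. The groups did not overlap for any of the 74 genes. Genes picked by this test tend to have separate groups, so that this is no further result, here or for single genes below. This sorting by role was made after the calls were seen.

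**Figure D1:**
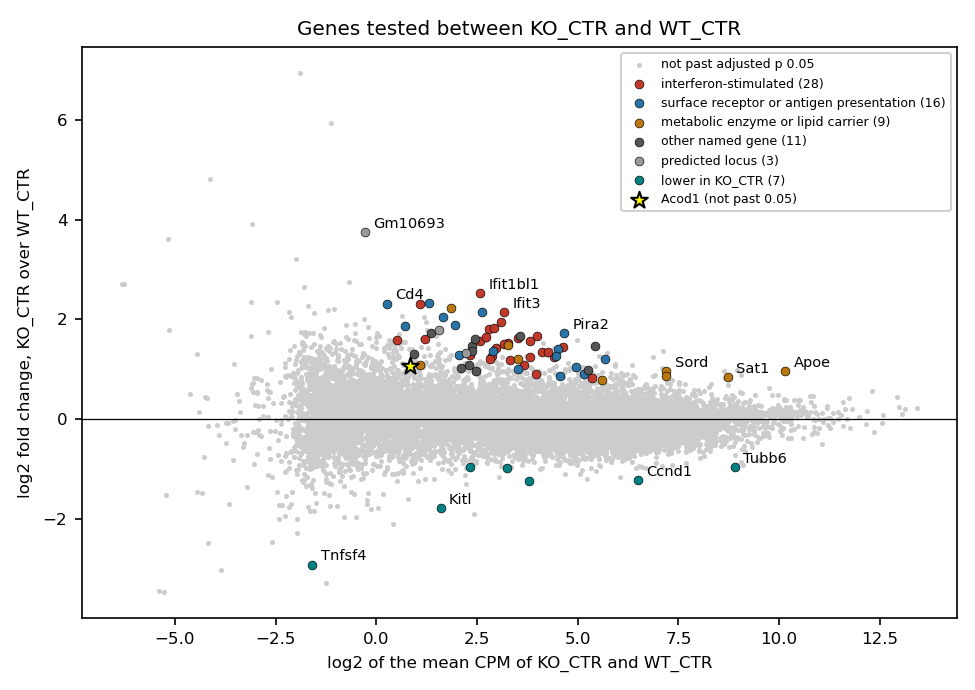
The horizontal axis is the log2 of the mean CPM of KO_CTR and WT_CTR and the vertical axis the log2 fold change, KO_CTR over WT_CTR, for 14262 genes (2 genes at 0 in both groups cannot be drawn); coloured points passed an adjusted p of 0.05. The 67 higher genes lie mostly at low to middle levels, the 7 lower genes lie below 0, and Acod1 (star) was not past the threshold.

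How many genes passed turned on which libraries were in the fit. With WT_CTR replicate 1 left out the number was 0, where 1315 genes had an unadjusted p under 0.05 and the smallest adjusted p was 0.0647. Leaving out KO_CTR replicate 3 gave 3 genes, WT_CTR replicate 2 gave 4, KO_CTR replicate 1 gave 21 and KO_4OI replicate 1 gave 31. With KO_CTR replicate 2 left out it was 112, with KO_4OI replicate 2 left out 151, and with WT_CTR replicate 3 left out 247. DESeq2 called 591 genes, 441 higher and 150 lower, and 73 of the 74 were among them. With the libraries that hold Xist reads (WT_CTR replicate 2 and KO_4OI replicate 3) left out 5 genes passed, and with Xist reads as a covariate 4 did. All 74 genes kept the direction of their change in the 20 alternatives, wherever they were tested. The median log2 fold change of the 67 higher genes was 1.41, and 1.29 to 1.59 over those alternatives. Among these 67 genes KO_CTR replicate 2 was the highest library for 49, KO_CTR replicate 3 for 16 and KO_CTR replicate 1 for 2. WT_CTR replicate 1 was the lowest library for 45 of them, WT_CTR replicate 2 for 15 and WT_CTR replicate 3 for 6.

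**Figure D2:**
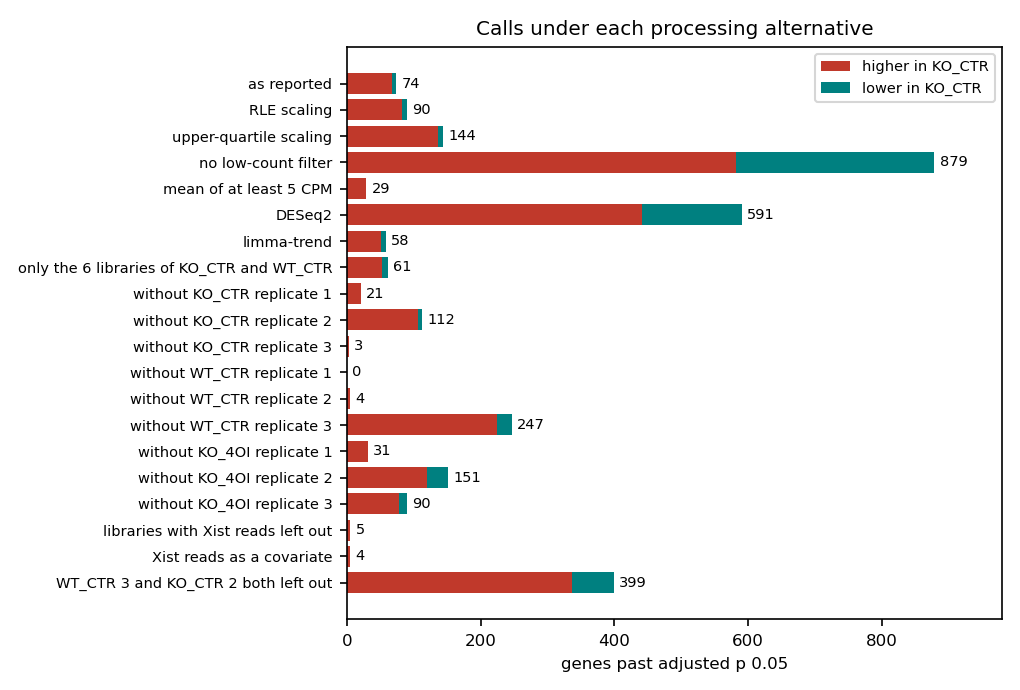
Bars give the number of genes past an adjusted p of 0.05 under each processing alternative drawn, stacked as higher (red) and lower (teal) in KO_CTR. The fit with the replicate number as a block, which left 6 genes, is not drawn. The count is 74 as reported, 0 without WT_CTR replicate 1 and 879 without a low-count filter.

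By role, interferon-stimulated genes were the most numerous among the genes that rose in KO_CTR. Of 96 genes tested on 3 lists of such genes (Ifit and Oas families, interferon-inducible GTPases, other effectors), 27 passed as higher and 0 as lower. Their median log2 fold change was 0.81, beside -0.03 for all genes, and 68 of 96 had all KO_CTR libraries above all WT_CTR libraries, beside 10.2% of all genes tested. The summed level of the lists was 4268, 5659 and 4485 CPM in KO_CTR, against 3157, 3324 and 3878 CPM in WT_CTR. Every KO_CTR library lay above every WT_CTR library in this sum. The count of 27 became 0 when WT_CTR replicate 1 was left out, 2 for WT_CTR replicate 2, 2 for KO_CTR replicate 3, 14 for KO_CTR replicate 1 and 52 by DESeq2. At an unadjusted p under 0.05, 73 of the 96 were higher and 1 was lower. The median stayed between 0.71 and 0.98 over the alternatives.

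The Ifit proteins bind foreign RNA, and their genes lie next to each other on chromosome 19. Ifit1bl1 (mm10 chromosome 19, 34592891 to 34601956, minus strand) had 7.54, 11.2 and 11.9 CPM in KO_CTR, against 1.24, 1.91 and 2.11 CPM in WT_CTR, the largest log2 fold change of the interferon-stimulated genes that passed (log2 fold change 2.52, SE 0.28, adjusted p = 0.00823). Ifit3 (mm10 chromosome 19, 34583531 to 34588731, plus strand) had 10.4, 18.5 and 15.5 CPM in KO_CTR, against 2.47, 3.39 and 4.104 CPM in WT_CTR (log2 fold change 2.14, SE 0.29, adjusted p = 0.0137). In both genes the lowest KO_CTR library stood well above the highest WT_CTR library. Ifit1, which recognises the unmethylated cap of viral RNA, had 9.92, 17.7 and 13.5 CPM in KO_CTR, against 2.16, 3.89 and 4.47 CPM in WT_CTR (log2 fold change 1.95, SE 0.29, adjusted p = 0.0181). Ifit2, the fourth gene of the cluster to pass, had 12.4, 13.8 and 16.5 CPM in KO_CTR, against 4.29, 5.304 and 5.19 CPM in WT_CTR (log2 fold change 1.53, SE 0.23, adjusted p = 0.0181). KO_CTR replicate 1 was the lowest KO_CTR library for all 4 genes. Oasl2, a relative of the oligoadenylate synthetases that activate RNase L, had 20.6, 29.5 and 21.9 CPM in KO_CTR, against 6.22, 8.27 and 8.18 CPM in WT_CTR (log2 fold change 1.66, SE 0.21, adjusted p = 0.00823). Oas1g, a synthetase of that family, also rose (log2 fold change 1.198). Altogether 6 of 14 Ifit and Oas genes passed, 13 of 14 had groups that did not overlap, and the median log2 fold change was 1.26. With WT_CTR replicate 1 left out 0 of the 14 passed, with WT_CTR replicate 2 or KO_CTR replicate 3 left out 2 passed, with WT_CTR replicate 3 left out 10 passed, and the median stayed between 1.16 and 1.48. Close paralogs such as these can exchange reads in counting, so single values are less certain than the family.

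The promoters of several of these genes hold the element that the interferon-activated factors are known to bind, a pair of GAAA blocks set 2 bases apart. RefSeq promoters (GRCm38.p6, the assembly of mm10) were searched for GAAANNGAAA on either strand, N being any base, in the 300 bases from 250 before to 50 after each start. The element was found for 403 of the 10352 tested genes with a promoter in the table (3.893%). Among the genes that rose it was found for 15 of 51 (29.4%). Of the interferon-stimulated genes that rose 14 of 22 held it (63.6%), and of the other genes that rose 1 of 29 (3.45%), which was Gm12250. Genes were sorted into these roles after the calls were seen, and interferon-stimulated genes that did not rise were not counted apart. The split by role is therefore no separate result about the genes that rose. Of the genes that fell it was found for 0 of 2. Those with it were Ifit1bl1, Ifit3, Ifit1, Isg15, Irgm2, Cxcl10, Tgtp2, Gbp2, Phf11b, Ifi205, Ifi211, Oas1g, Slfn5, Rsad2 and the predicted locus Gm12250. A match describes the letters only and is neither a site shown to be bound nor a cause.

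The 250 bases before the start are printed 5′ to 3′ on the gene's strand for the 4 genes that rose with the smallest p among those with the element, whose letters stand in capitals. These genes were chosen for holding the element, so its presence in all 4 is no result. On the plus strand of the gene it reads as GAAA blocks, on the minus strand as TTTC blocks. The windows are chr19:34601969-34602218, minus strand for Ifit1bl1, chr19:34583279-34583528, plus strand for Ifit3, chr11:58183593-58183842, plus strand for Gm12250 and chr1:173913047-173913296, minus strand for Ifi211.
Ifit1bl1: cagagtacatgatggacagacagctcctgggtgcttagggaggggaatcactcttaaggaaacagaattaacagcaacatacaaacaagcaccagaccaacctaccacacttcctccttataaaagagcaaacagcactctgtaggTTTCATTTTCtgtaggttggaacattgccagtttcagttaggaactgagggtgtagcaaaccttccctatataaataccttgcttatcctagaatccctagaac
Ifit3: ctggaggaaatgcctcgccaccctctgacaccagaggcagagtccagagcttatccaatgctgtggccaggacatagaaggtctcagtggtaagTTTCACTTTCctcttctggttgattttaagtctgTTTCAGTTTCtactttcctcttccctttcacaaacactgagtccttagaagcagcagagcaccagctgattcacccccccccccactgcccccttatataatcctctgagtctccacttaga
Gm12250: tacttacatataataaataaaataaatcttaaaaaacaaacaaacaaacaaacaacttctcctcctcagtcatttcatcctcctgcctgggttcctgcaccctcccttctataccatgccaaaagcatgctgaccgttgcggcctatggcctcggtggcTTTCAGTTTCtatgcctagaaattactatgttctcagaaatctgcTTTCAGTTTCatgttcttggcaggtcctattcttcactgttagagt
Ifi211: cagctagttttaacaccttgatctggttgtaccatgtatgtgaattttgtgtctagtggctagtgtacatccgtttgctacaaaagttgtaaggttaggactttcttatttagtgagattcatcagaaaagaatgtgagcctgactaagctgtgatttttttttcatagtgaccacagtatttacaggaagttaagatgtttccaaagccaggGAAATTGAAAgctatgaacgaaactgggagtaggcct
Ifit3 and Gm12250 carried 2 elements each, and Ifit1bl1 and Ifi211 carried 1. The element nearest the 5′ end of the window began 104 bases upstream of the start in Ifit1bl1, 156 in Ifit3, 91 in Gm12250 and 37 in Ifi211. For Ifit3 and Ifi211 the RefSeq start matched the start of an annotated transcript, and for the other two it did not.

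The interferon-inducible GTPases, which act on the membranes of vacuoles and on viral capsids, had 6 of 17 tested members higher, 13 of 17 without overlap and a median log2 fold change of 0.98. Mx2, a dynamin-like antiviral GTPase gene annotated as a polymorphic pseudogene, had 2.98, 4.06 and 3.54 CPM in KO_CTR, against 0.348, 0.791 and 0.941 CPM in WT_CTR (log2 fold change 2.31, SE 0.31, adjusted p = 0.0137). Ifi47, an immunity-related GTPase, had 21.4, 28.00 and 25.3 CPM in KO_CTR, against 7.69, 10.97 and 10.7 CPM in WT_CTR (log2 fold change 1.34, SE 0.19, adjusted p = 0.0141). The guanylate-binding protein gene Gbp2 had 10.3, 10.8 and 14.6 CPM in KO_CTR, against 2.201, 3.195 and 4.65 CPM in WT_CTR (log2 fold change 1.82, SE 0.33, adjusted p = 0.029). These 3 genes were higher in each KO_CTR library than in any WT_CTR library. Mx1 had 9.69, 9.96 and 11.5 CPM in KO_CTR, against 3.399, 4.15 and 5.301 CPM in WT_CTR (log2 fold change 1.27, SE 0.20, adjusted p = 0.0197), and Irgm2 had 15.2, 20.8 and 16.1 CPM in KO_CTR, against 8.03, 8.01 and 8.58 CPM in WT_CTR (log2 fold change 1.08, SE 0.18, adjusted p = 0.0252). Tgtp2, a further immunity-related GTPase, rose at a low level (log2 fold change 1.600). With all libraries, 13 of the 17 were higher at an unadjusted p under 0.05 and DESeq2 called 10. By edgeR 0 passed once any of WT_CTR replicate 1, WT_CTR replicate 2 or KO_CTR replicate 3 was left out, and 2 passed without KO_CTR replicate 1. The predicted locus Gm12250 (mm10 chromosome 11, 58187739 to 58189012, plus strand) lies close to Irgm2 on chromosome 11 and had 3.47, 6.03 and 4.303 CPM in KO_CTR, against 1.24, 1.38 and 1.34 CPM in WT_CTR (log2 fold change 1.79, SE 0.25, adjusted p = 0.0141).

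Of 65 other interferon-stimulated effectors 15 passed as higher and 0 as lower, with a median log2 fold change of 0.69. By edgeR 0 of them passed without WT_CTR replicate 1, WT_CTR replicate 2 or KO_CTR replicate 3, 7 without KO_CTR replicate 1, 9 without KO_4OI replicate 1, and 30 by DESeq2 with all libraries. Zbp1, a sensor of Z-form nucleic acid that can start necroptosis, had 8.99, 15.2 and 8.64 CPM in KO_CTR, against 1.85, 2.998 and 4.42 CPM in WT_CTR (log2 fold change 1.805, SE 0.31, adjusted p = 0.0285). Rsad2 encodes viperin, which makes a chain-terminating nucleotide, and had 8.33, 11.05 and 10.9 CPM in KO_CTR, against 2.28, 3.56 and 3.73 CPM in WT_CTR (log2 fold change 1.65, SE 0.33, adjusted p = 0.0496). Usp18 removes ISG15 from proteins and dampens the interferon receptor; it had 6.94, 11.3 and 8.61 CPM in KO_CTR, against 2.55, 3.29 and 3.11 CPM in WT_CTR (log2 fold change 1.58, SE 0.25, adjusted p = 0.0215). All 3 genes lay without overlap, with KO_CTR replicate 2 highest. Isg15, a ubiquitin-like modifier, had 15.6, 29.01 and 18.8 CPM in KO_CTR, against 5.64, 6.62 and 9.12 CPM in WT_CTR (log2 fold change 1.56, SE 0.25, adjusted p = 0.0215). Cxcl10, a chemokine for T and NK cells, is on the list of chemokine ligands and not among the 65. By role it was counted with the 28 interferon-stimulated genes, beside the 27 of the 3 lists. Cxcl10 had 12.3, 24.2 and 15.3 CPM in KO_CTR, against 4.44, 5.04 and 7.27 CPM in WT_CTR (log2 fold change 1.62, SE 0.27, adjusted p = 0.0263). Rtp4 had 22.2, 34.9 and 32.00 CPM in KO_CTR, against 11.6, 12.4 and 13.7 CPM in WT_CTR (log2 fold change 1.24, SE 0.18, adjusted p = 0.0181). In each of these too the lowest KO_CTR value exceeded the highest WT_CTR value. Xaf1, an antagonist of an inhibitor of apoptosis, had 11.3, 15.7 and 14.5 CPM in KO_CTR, against 5.600, 5.93 and 6.698 CPM in WT_CTR (log2 fold change 1.18, SE 0.18, adjusted p = 0.0197). Cmpk2, a mitochondrial nucleotide kinase whose gene neighbours Rsad2 on chromosome 12, had 10.7, 17.1 and 12.3 CPM in KO_CTR, against 3.82, 5.44 and 4.902 CPM in WT_CTR (log2 fold change 1.499, SE 0.24, adjusted p = 0.0232).

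The Pyhin family, whose proteins bind DNA, lies as a cluster on chromosome 1 and had 4 members among the genes that rose. Ifi211 (mm10 chromosome 1, 173896345 to 173913046, minus strand) had 8.99, 14.9 and 10.2 CPM in KO_CTR, against 4.25, 4.28 and 4.05 CPM in WT_CTR (log2 fold change 1.44, SE 0.22, adjusted p = 0.0181). Ifi204 had 22.4, 32.6 and 27.7 CPM in KO_CTR, against 10.9, 10.3 and 11.1 CPM in WT_CTR (log2 fold change 1.35). The other two, Ifi209 and Ifi205, had log2 fold changes of 1.24 and 1.59. The remaining interferon-stimulated genes to rise were Ms4a4c (1.45), Phf11b (1.28), Sp140 (0.905) and Slfn5 (0.83), given as log2 fold changes. Slfn5 was the interferon-stimulated gene with the smallest change among the 28, with 59.1, 44.6 and 54.8 CPM in KO_CTR, against 26.3, 35.02 and 27.6 CPM in WT_CTR. Of these 28 genes, 0 were kept without WT_CTR replicate 1 (adjusted p 0.0647 to 0.333), 2 each when WT_CTR replicate 2 or KO_CTR replicate 3 was left out, 15 for KO_CTR replicate 1, 27 for WT_CTR replicate 3 and 28 for KO_CTR replicate 2.

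**Figure D3:**
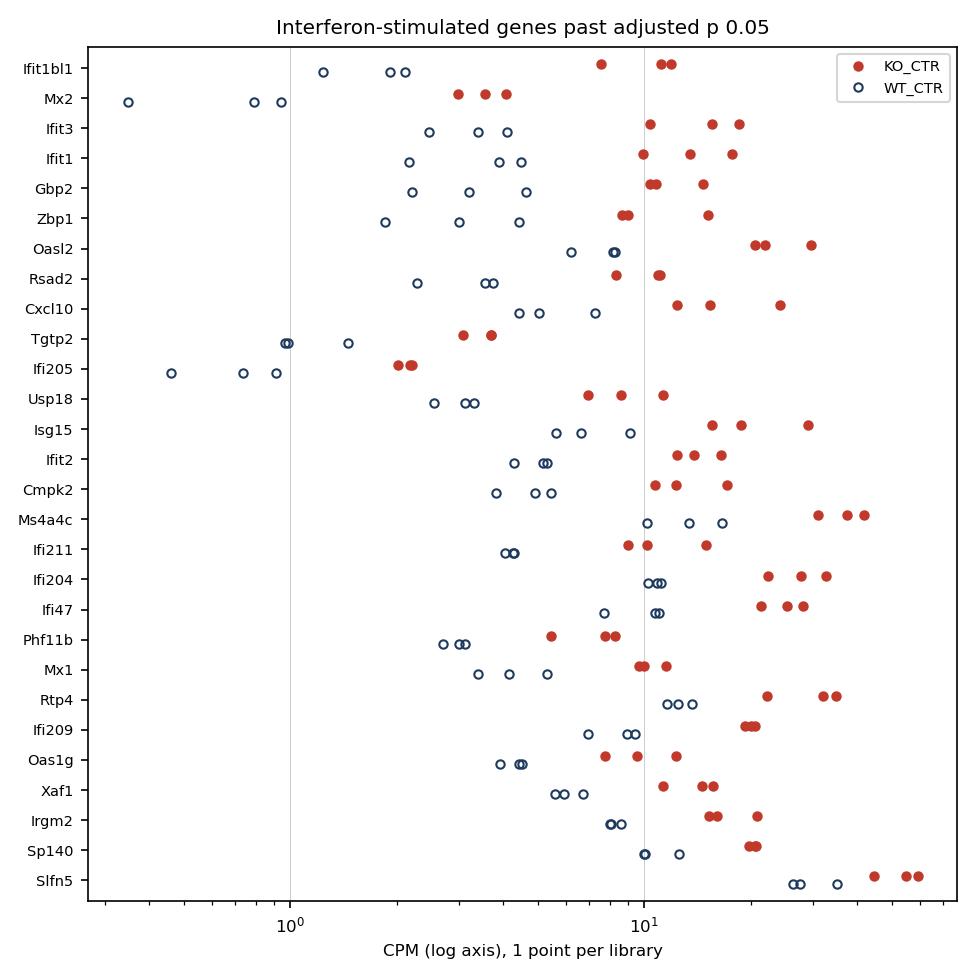
Each row is an interferon-stimulated gene past an adjusted p of 0.05, with the CPM of the 3 KO_CTR libraries (filled, upper) and the 3 WT_CTR libraries (open, lower) on a log axis. The groups do not overlap in any of the 28 rows, which were picked by the test, and the separation is widest for Ifit1bl1 and Mx2.

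Few of the upstream genes of the pathway passed, although many lay higher at an unadjusted p under 0.05. Of 22 interferon receptor and JAK-STAT genes 1 passed (Usp18), where 0.47% of all genes tested passed as higher. At an unadjusted p under 0.05, 9 of the 22 were higher (40.9%, beside 9.18% of all genes) and 0 lower. Of the 22, 8 had KO_CTR above WT_CTR without overlap, and the median log2 fold change was 0.35. Stat2, a subunit of the factor that type I interferon activates, had 28.3, 38.3 and 28.4 CPM in KO_CTR, against 16.5, 15.3 and 20.98 CPM in WT_CTR (log2 fold change 0.85, SE 0.18, adjusted p = 0.0532). Irf9, its DNA-binding partner, had 36.6, 52.5 and 38.7 CPM in KO_CTR, against 20.5, 20.9 and 28.6 CPM in WT_CTR (log2 fold change 0.87, SE 0.19, adjusted p = 0.0618). Neither passed, although the groups did not overlap in either gene. Of 20 nucleic acid sensors and adaptors 1 passed (Zbp1), with a median log2 fold change of 0.48. At an unadjusted p under 0.05, 12 of the 20 were higher (60%) and 1 was lower. DESeq2 called 7 of the 22 and 6 of the 20. Both edgeR calls were lost when any of WT_CTR replicate 1, WT_CTR replicate 2 or KO_CTR replicate 3 was left out, and that of Zbp1 also without KO_CTR replicate 1. Irf7, the factor that amplifies interferon production, had 24.7, 58.7 and 26.2 CPM in KO_CTR, against 9.27, 11.7 and 18.95 CPM in WT_CTR and did not pass (log2 fold change 1.45, SE 0.32, adjusted p = 0.0661). Its level in KO_CTR replicate 2 was far above those of the other 2 KO_CTR libraries.

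None of the 19 interferon genes looked up had enough reads to be tested. Ifnb1, which encodes interferon beta, held 1, 5 and 3 reads in KO_CTR, against 0 reads in each WT_CTR library, and 0 reads in each KO_4OI library. Its 9 reads over KO_CTR, set against the 3 reads that a count of 0 allows over the WT_CTR group, came to a ratio of 3.35 after scaling to library size, with the 9 reads taken as counted. With their counting error included, KO_CTR was at least 2.204-fold higher (lower Clopper-Pearson 95% bound for 9 of 9 reads, counting error alone). An exact two-sided permutation test of the 3 against 3 libraries gave p = 0.1, the smallest p this design allows. Of the other 18 genes, Ifnk and Ifnz held 1 read each over KO_CTR and none over WT_CTR, and the rest held 0 reads in all 6 libraries.

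Surface receptors of macrophages and dendritic cells were the next group to rise, with 16 genes and log2 fold changes of 0.87 to 2.32. Pira2 (mm10 chromosome 7, 3836812 to 3845051, minus strand), an activating immunoglobulin-like receptor that signals through the ITAM adaptor FcRγ, had 36.1, 34.1 and 45.7 CPM in KO_CTR, against 11.1, 14.9 and 9.23 CPM in WT_CTR (log2 fold change 1.72, SE 0.21, adjusted p = 0.00823). The lowest KO_CTR library held more than the highest WT_CTR library by a wide margin. Adgre4, an adhesion receptor related to F4/80, had 7.34, 12.8 and 10.02 CPM in KO_CTR, against 1.51, 2.11 and 3.14 CPM in WT_CTR (log2 fold change 2.14, SE 0.36, adjusted p = 0.0252). Fcrls, a scavenger-type relative of the Fc receptors, had 4.33, 9.08 and 4.95 CPM in KO_CTR, against 0.966, 1.45 and 2.42 CPM in WT_CTR (log2 fold change 1.89, SE 0.34, adjusted p = 0.029). Ms4a4a, a tetraspan protein of macrophages, had 4.66, 4.94 and 5.604 CPM in KO_CTR, against 0.888, 0.791 and 1.94 CPM in WT_CTR (log2 fold change 2.04, SE 0.40, adjusted p = 0.0446). KO_CTR replicate 2 stood above the other 2 KO_CTR libraries in Adgre4 and Fcrls but not in Pira2 or Ms4a4a. Clec7a, the gene of the receptor for fungal beta-glucan, annotated as a polymorphic pseudogene, had 29.8, 35.5 and 34.7 CPM in KO_CTR, against 10.5, 12.4 and 14.5 CPM in WT_CTR (log2 fold change 1.41, SE 0.23, adjusted p = 0.0232). Mertk, which binds apoptotic cells, had 5.56, 7.99 and 4.12 CPM in KO_CTR, against 2.43, 2.17 and 2.62 CPM in WT_CTR (log2 fold change 1.28, SE 0.25, adjusted p = 0.0496). Cxcr4, the receptor for Cxcl12, had 55.2, 87.98 and 70.1 CPM in KO_CTR, against 22.6, 30.1 and 39.6 CPM in WT_CTR (log2 fold change 1.21, SE 0.22, adjusted p = 0.0339). Each of these 3 genes was higher in every KO_CTR library than in any WT_CTR library.

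Itgax, which encodes the dendritic cell integrin CD11c, had 30.8, 34.4 and 26.9 CPM in KO_CTR, against 15.2, 17.8 and 17.5 CPM in WT_CTR (log2 fold change 0.87, SE 0.15, adjusted p = 0.029). Cd4 had 1.95, 2.22 and 1.88 CPM in KO_CTR, against 0.309, 0.329 and 0.542 CPM in WT_CTR (log2 fold change 2.32, SE 0.38, adjusted p = 0.0232), and Lag3, a ligand of MHC class II, had 2.38, 6.74 and 3.29 CPM in KO_CTR, against 0.695, 0.5600 and 1.17 CPM in WT_CTR (log2 fold change 2.32, SE 0.42, adjusted p = 0.0332). Both are known from T cells and are also found on some myeloid cells. Ly86, partner of the receptor Cd180, the class I locus H2-K2, annotated as a transcribed unprocessed pseudogene, the class I gene H2-T24, the iron regulator Hfe, the receptor for platelet-activating factor Ptafr and the surface protein gene Ly6i made up the rest, with log2 fold changes of 1.04, 1.37, 1.003, 1.26, 0.904 and 1.87. Of the 16 calls, 0 were kept without WT_CTR replicate 1 (adjusted p 0.0719 to 0.313), 1 each when WT_CTR replicate 2 or KO_CTR replicate 3 was left out, 2 for KO_CTR replicate 1 and 16 for KO_CTR replicate 2. Reads of Pira, Ms4a and class I genes may be shared with close paralogs. Gm10693 (mm10 chromosome 7, 3860681 to 3869170, minus strand), a predicted locus beside Pira2, had 1.42, 1.05 and 2.13 CPM in KO_CTR, against 0, 0.329 and 0 CPM in WT_CTR. Gm5431, a predicted protein-coding locus on chromosome 11, had 5.82, 7.03 and 7.41 CPM in KO_CTR, against 2.12, 2.504 and 3.39 CPM in WT_CTR (log2 fold change 1.33, SE 0.25, adjusted p = 0.0413).

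Neither of the antigen presentation lists, which do not include H2-K2 or H2-T24, held a gene past the threshold. Of 12 MHC class II presentation genes 0 passed by edgeR, 12 were higher at an unadjusted p under 0.05, and DESeq2 called 9. The median log2 fold change was 0.88, and 10 of 12 had groups without overlap. H2-Aa, which encodes a class II alpha chain, had 132, 231 and 182 CPM in KO_CTR, against 63.8, 90.3 and 113 CPM in WT_CTR (log2 fold change 1.03, SE 0.22, adjusted p = 0.0608). Ciita, the master regulator of these genes, had 14.7, 27.6 and 12.9 CPM in KO_CTR, against 5.600, 8.302 and 9.01 CPM in WT_CTR (log2 fold change 1.26, SE 0.29, adjusted p = 0.075). KO_CTR replicate 2 held the highest value of both, and WT_CTR replicate 1 the lowest. Leaving out KO_CTR replicate 2 gave a class II median of 0.64. Leaving out WT_CTR replicate 3 gave 1.19, and edgeR then called 6 of the 12. Of 20 MHC class I presentation genes 0 passed, 16 were higher at an unadjusted p under 0.05, DESeq2 called 6, and the median was 0.52. Nlrc5, the class I counterpart of Ciita, had 17.3, 20.1 and 13.3 CPM in KO_CTR, against 9.39, 10.7 and 9.86 CPM in WT_CTR (log2 fold change 0.76, SE 0.18, adjusted p = 0.0782).

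Markers of some other cell types that a bone marrow culture can hold also lay higher in KO_CTR. The 7 defining B cell markers summed to 99.2, 139.6 and 111 CPM in KO_CTR, against 53.99, 64.7 and 84.3 CPM in WT_CTR; 0 passed, 7 were higher at an unadjusted p under 0.05, and 6 were without overlap. Of a wider list of 14 B cell genes 0 passed by edgeR and 5 by DESeq2. Ighm, the heavy chain of IgM, had 64.4, 89.5 and 73.1 CPM in KO_CTR, against 37.8, 44.9 and 57.3 CPM in WT_CTR (log2 fold change 0.697, SE 0.18, adjusted p = 0.0956). Igkc, the kappa light chain, had 7.54, 9.12 and 8.099 CPM in KO_CTR, against 2.05, 4.12 and 4.79 CPM in WT_CTR (log2 fold change 1.16, SE 0.26, adjusted p = 0.0653). The 8 dendritic cell markers, among them Itgax and H2-Aa, summed to 187, 293 and 238 CPM in KO_CTR, against 90.1, 122 and 148 CPM in WT_CTR, and the 8 macrophage markers summed to 3289, 4483 and 3312 CPM in KO_CTR, against 2706, 2647 and 3135 CPM in WT_CTR. In all 3 sums each KO_CTR library lay above each WT_CTR library, and KO_CTR replicate 2 was highest. Of the dendritic cell markers 1 passed (Itgax) and 6 were higher at an unadjusted p under 0.05; of the macrophage markers 1 passed (Mertk) and 6 were higher at an unadjusted p under 0.05. Both calls were lost without WT_CTR replicate 1, WT_CTR replicate 2, KO_CTR replicate 1, KO_CTR replicate 3 or KO_4OI replicate 1.

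The 8 T and NK cell markers summed to only 5.36, 5.69 and 6.44 CPM in KO_CTR, against 4.63, 5.07 and 5.56 CPM in WT_CTR, with Gzma and Ncr1 at 0 in all 6 libraries. The 5 mast cell and basophil markers summed to 6.38, 8.12 and 6.26 CPM in KO_CTR, against 5.91, 4.58 and 4.67 CPM in WT_CTR, and the 4 megakaryocyte markers to 60.5, 108 and 63.4 CPM in KO_CTR, against 41.4, 43.98 and 67.4 CPM in WT_CTR. Neutrophil markers summed to 823, 1170.4 and 734 CPM in KO_CTR, against 777, 614 and 922 CPM in WT_CTR and erythroid markers to 13.99, 20.97 and 9.04 CPM in KO_CTR, against 11.4, 7.41 and 12.97 CPM in WT_CTR. In these last 3 sums, and in that of the T and NK cell markers, the groups overlapped. Stromal and endothelial markers stayed at or below 15.6 CPM in sum in every library. For a bulk sample, more cells of a type and more RNA of a gene per cell cannot be told apart. The part of other cell types in the interferon-stimulated, receptor and antigen presentation genes was not tested.

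The 9 genes of metabolism and lipid transport that rose did so with log2 fold changes of 0.79 to 2.22. Apoe, the lipoprotein that carries cholesterol out of macrophages, was the most abundant gene to rise, with 1213, 2033 and 1261 CPM in KO_CTR, against 674, 742 and 891 CPM in WT_CTR (log2 fold change 0.97, SE 0.19, adjusted p = 0.0496). Its level in KO_CTR replicate 2 exceeded those of the other 2 KO_CTR libraries. Cyp27a1, a mitochondrial sterol hydroxylase, had 11.97, 19.04 and 11.8 CPM in KO_CTR, against 4.52, 3.85 and 6.897 CPM in WT_CTR (log2 fold change 1.48, SE 0.27, adjusted p = 0.0332). Scd1, the desaturase that makes oleate, had 3.24, 2.595 and 2.75 CPM in KO_CTR, against 1.197, 1.35 and 1.48 CPM in WT_CTR (log2 fold change 1.09, SE 0.22, adjusted p = 0.0496). Ip6k3, an inositol hexakisphosphate kinase, had 3.54, 11.01 and 3.33 CPM in KO_CTR, against 0.966, 1.32 and 1.48 CPM in WT_CTR (log2 fold change 2.22, SE 0.45, adjusted p = 0.0496). KO_CTR replicate 2 was high in Cyp27a1 and Ip6k3, and the groups did not overlap in any of the 4 genes. Sord, which oxidises sorbitol to fructose, had 164, 226 and 194 CPM in KO_CTR, against 85.9, 100.01 and 114 CPM in WT_CTR (log2 fold change 0.96, SE 0.16, adjusted p = 0.0232). Sat1, which acetylates spermidine and spermine for export, had 472, 563 and 600.3 CPM in KO_CTR, against 276, 328 and 311 CPM in WT_CTR (log2 fold change 0.84, SE 0.16, adjusted p = 0.0438). Pla2g7, the phospholipase that inactivates platelet-activating factor, had 181, 191 and 198 CPM in KO_CTR, against 109, 99.88 and 103 CPM in WT_CTR (log2 fold change 0.87, SE 0.15, adjusted p = 0.029). Replicates of Pla2g7 lay close together in both groups, and those of Sord and Sat1 less so. Entpd1 (CD39), which breaks down extracellular ATP, and Xdh, the xanthine dehydrogenase, had log2 fold changes of 1.21 and 0.79. Of the 9 calls, 0 were kept without WT_CTR replicate 1, WT_CTR replicate 2 or KO_CTR replicate 3 (adjusted p 0.0615 to 0.297), 1 without KO_CTR replicate 1, and 9 when either WT_CTR replicate 3 or KO_CTR replicate 2 was left out. Of 19 LXR targets and fatty acid synthesis genes 2 passed (Apoe and Scd1), 7 were higher and 3 lower at an unadjusted p under 0.05, and the median log2 fold change was 0.27.

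Another 11 named genes rose. Gadd45a, a growth arrest and DNA damage response gene, had 6.02, 9.58 and 7.38 CPM in KO_CTR, against 2.66, 2.37 and 3.28 CPM in WT_CTR (log2 fold change 1.46, SE 0.21, adjusted p = 0.0181). Vamp5, a vesicle SNARE protein gene, had 6.25, 11.3 and 7.34 CPM in KO_CTR, against 1.62, 2.504 and 3.88 CPM in WT_CTR (log2 fold change 1.62, SE 0.30, adjusted p = 0.0351). Arl5c, a small GTPase of the ARF-like family, had 12.4, 27.1 and 14.3 CPM in KO_CTR, against 4.56, 3.95 and 8.35 CPM in WT_CTR (log2 fold change 1.66, SE 0.34, adjusted p = 0.0496). KO_CTR replicate 2 was the highest library for all 3 genes. Tmem176b, a cation channel of dendritic cells and macrophages, had 43.7, 92.4 and 54.96 CPM in KO_CTR, against 16.8, 18.4 and 33.5 CPM in WT_CTR (log2 fold change 1.47, SE 0.30, adjusted p = 0.0496). Also higher were Nxpe4, Corin, Loxl3, Tmem35b, Ppp1r27, Ndrg2 and Gng4, at log2 fold changes of 1.36, 1.09, 0.96, 0.98, 1.03, 1.301 and 1.73. Of these 11 calls 0 were kept without WT_CTR replicate 1, WT_CTR replicate 2 or KO_CTR replicate 3 (adjusted p 0.0615 to 0.297), and 2 were kept without KO_CTR replicate 1.

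In KO_CTR 7 genes fell. Tubb6, a beta tubulin, was the most abundant of them, with 332, 307 and 332 CPM in KO_CTR, against 706, 576 and 605 CPM in WT_CTR (log2 fold change -0.96, SE 0.16, adjusted p = 0.0285). The cyclin D1 gene Ccnd1, whose product drives entry into the cell cycle, had 65.01, 44.1 and 52.5 CPM in KO_CTR, against 139, 117 and 123 CPM in WT_CTR (log2 fold change -1.23, SE 0.22, adjusted p = 0.029). Ccl2, the monocyte chemoattractant, had 8.43, 7.16 and 8.86 CPM in KO_CTR, against 24.99, 15.9 and 17.4 CPM in WT_CTR (log2 fold change -1.25, SE 0.24, adjusted p = 0.0413). In these genes the highest KO_CTR library stayed below the lowest WT_CTR library. Ptk2, the focal adhesion kinase, had 7.74, 5.27 and 6.04 CPM in KO_CTR, against 14.4, 12.2 and 10.9 CPM in WT_CTR (log2 fold change -0.97, SE 0.19, adjusted p = 0.0438). Kitl, the ligand of the receptor Kit, had 1.75, 0.586 and 1.66 CPM in KO_CTR, against 5.45, 5.04 and 3.65 CPM in WT_CTR (log2 fold change -1.79, SE 0.32, adjusted p = 0.029). Rnf183, a ubiquitin ligase, had 3.57, 3.22 and 3.47 CPM in KO_CTR, against 7.84, 6.09 and 6.07 CPM in WT_CTR (log2 fold change -0.96, SE 0.19, adjusted p = 0.0446). Again the groups did not overlap. Tnfsf4, which encodes the T cell costimulator OX40L, had 2, 1 and 3 reads in KO_CTR, or 0.0661, 0.0419 and 0.108 CPM in KO_CTR, against 0.811, 0.626 and 0.342 CPM in WT_CTR (log2 fold change -2.92, SE 0.56, adjusted p = 0.0413). Of the 7 calls 0 were kept without WT_CTR replicate 1, WT_CTR replicate 2, KO_CTR replicate 1 or KO_CTR replicate 3 (adjusted p 0.0612 to 0.297), 4 were kept without KO_CTR replicate 2, and 7 without WT_CTR replicate 3.

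**Figure D4:**
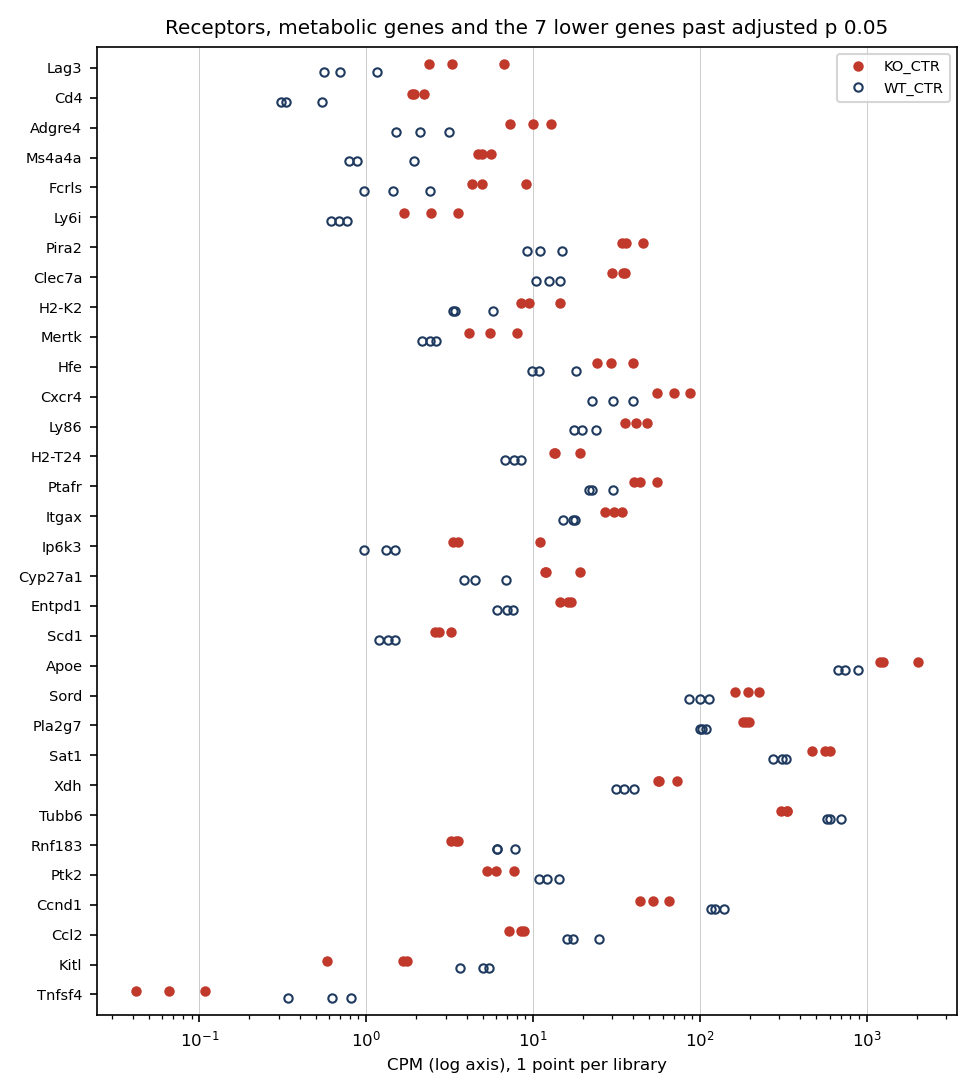
Each row is a gene past an adjusted p of 0.05: 16 receptors or antigen presentation genes, 9 metabolic genes and, at the bottom, the 7 lower genes, with the CPM of the 3 KO_CTR libraries (filled, upper) and the 3 WT_CTR libraries (open, lower) on a log axis. No row overlaps, the genes having been picked by the test, and levels run from below 1 CPM for Tnfsf4 to above 1000 CPM for Apoe.

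Other cytoskeletal genes also lay lower without passing. Of 23 tubulins and actins 1 fell (Tubb6), 8 were lower at an unadjusted p under 0.05, and 10 lay below WT_CTR without overlap, which is 43.5% beside 9.56% of all genes. Tuba4a had 117, 121 and 120.3 CPM in KO_CTR, against 186, 155 and 194 CPM in WT_CTR (log2 fold change -0.58, SE 0.14, adjusted p = 0.0857), and Tuba1c had 269, 276 and 293 CPM in KO_CTR, against 403, 365 and 428 CPM in WT_CTR (log2 fold change -0.51, SE 0.14, adjusted p = 0.101). Neither passed. The median log2 fold change of the list was -0.25. Of 24 podosome and focal adhesion genes 1 fell (Ptk2) and the median was -0.04. The call of Tubb6 was lost without WT_CTR replicate 1, WT_CTR replicate 2, KO_CTR replicate 1, KO_CTR replicate 3 or KO_4OI replicate 1, and that of Ptk2 also without KO_CTR replicate 2.

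Proliferation genes lay lower in KO_CTR without passing. Of 31 DNA replication and S phase genes 0 passed by edgeR, 16 were lower at an unadjusted p under 0.05, and DESeq2 called 2. All 31 had a negative log2 fold change, with a median of -0.42, and 21 lay below WT_CTR without overlap. Rrm2, a subunit of ribonucleotide reductase, had 78.9, 59.4 and 77.7 CPM in KO_CTR, against 123, 107 and 99.5 CPM in WT_CTR (log2 fold change -0.61, SE 0.15, adjusted p = 0.0882). Of 27 mitosis genes 0 passed, 14 were lower at an unadjusted p under 0.05, DESeq2 called 1, and the median was -0.44. Mki67, the proliferation antigen, had 182, 92.5 and 165 CPM in KO_CTR, against 303, 284 and 218 CPM in WT_CTR (log2 fold change -0.87, SE 0.22, adjusted p = 0.0875). KO_CTR replicate 2 was the lowest library in both genes. Over the alternatives the medians ran from -0.44 to -0.28 for replication and from -0.58 to -0.23 for mitosis. Cdk6, a partner of cyclin D1, had 81.8, 41.2 and 66.96 CPM in KO_CTR, against 138, 134 and 90.97 CPM in WT_CTR and did not pass (log2 fold change -0.93, SE 0.24, adjusted p = 0.0888).

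The lists of bone resorption, fusion, RANK to NFATc1 and AP-1 genes held no gene past the threshold by edgeR. Of 17 bone resorption and acid secretion genes 0 passed by edgeR or DESeq2, 1 was higher at an unadjusted p under 0.05, and the median log2 fold change was -0.04. Acp5, which encodes tartrate-resistant acid phosphatase, had 7680.1, 10802 and 8595 CPM in KO_CTR, against 6053, 6365 and 7396 CPM in WT_CTR (log2 fold change 0.45, SE 0.14, adjusted p = 0.137). Ctsk, the collagen-cleaving cathepsin K, had 8689.7, 8775 and 11064 CPM in KO_CTR, against 8172, 8653 and 7864 CPM in WT_CTR (log2 fold change 0.21, SE 0.12, adjusted p = 0.384). Acp5 lay above WT_CTR in each KO_CTR library, as did Ctsk, with narrow margins. Of 10 fusion genes 0 passed by either tool and 3 were lower at an unadjusted p under 0.05; Dcstamp, needed for fusion, had 297, 215 and 338 CPM in KO_CTR, against 428, 426 and 328 CPM in WT_CTR (log2 fold change -0.48, SE 0.17, adjusted p = 0.19). Of 19 genes from RANK to NFATc1 0 passed by either tool, with 1 higher and 1 lower at an unadjusted p under 0.05. Nfatc1, given here because it is a marker and not for its p, had 460.2, 615 and 365 CPM in KO_CTR, against 481, 467 and 496 CPM in WT_CTR (log2 fold change -0.003, SE 0.20, adjusted p = 0.997). Irf8, a repressor of osteoclast formation and a factor of dendritic cells, had 57.04, 91.9 and 54.6 CPM in KO_CTR, against 34.8, 37.2 and 58.4 CPM in WT_CTR (log2 fold change 0.64, SE 0.23, adjusted p = 0.18). Of 16 AP-1 genes 0 passed by edgeR, 4 were higher and 2 lower at an unadjusted p under 0.05, and DESeq2 called 3. Of 17 ITAM costimulation genes 1 passed (Pira2), and DESeq2 called 6. At an unadjusted p under 0.05, 10 of the 17 were higher (58.8%, beside 9.18% of all genes) and 0 lower. Of 20 matrix metalloproteinases and cathepsins 0 passed by edgeR, 5 were higher and 1 lower at an unadjusted p under 0.05, and DESeq2 called 2.

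Pathways tied to itaconate also held no call by edgeR. Itaconate is known to alkylate KEAP1 and so release NRF2, and to inhibit succinate dehydrogenase. Of 26 NRF2 targets 0 passed, 0 were higher and 7 lower at an unadjusted p under 0.05 (26.9% lower, beside 8.58% of all genes), DESeq2 called 3, and the median log2 fold change was -0.08. Me1, the malic enzyme, had 5.65, 5.11 and 5.496 CPM in KO_CTR, against 11.1, 8.53 and 9.18 CPM in WT_CTR (log2 fold change -0.82, SE 0.18, adjusted p = 0.0638). Gsr, the glutathione reductase, had 232, 212 and 211 CPM in KO_CTR, against 326, 323 and 281 CPM in WT_CTR (log2 fold change -0.51, SE 0.12, adjusted p = 0.0808). Gclm, a subunit of the enzyme that starts glutathione synthesis, had 117, 116 and 98.8 CPM in KO_CTR, against 166, 154 and 146 CPM in WT_CTR (log2 fold change -0.49, SE 0.13, adjusted p = 0.0909). In all 3 genes every KO_CTR library lay below every WT_CTR library. Of 23 genes of the citric acid cycle and itaconate breakdown 0 passed by either tool and 1 was lower at an unadjusted p under 0.05, with a median of 0.07. Of 43 nuclear respiratory chain genes 0 passed by either tool, 0 had an unadjusted p under 0.05, and 0 were without overlap, with log2 fold changes between -0.22 and 0.25. Of 24 heat shock and ER chaperone genes 0 passed, 7 were lower at an unadjusted p under 0.05, DESeq2 called 2, and the median was -0.32. Hsp90aa1 had 422, 224 and 480.1 CPM in KO_CTR, against 813, 730.3 and 493 CPM in WT_CTR (log2 fold change -0.85, SE 0.25, adjusted p = 0.118), with the value of WT_CTR replicate 3 close to those of KO_CTR.

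Chemokine ligands lay mostly higher in KO_CTR, with 1 call each way. Of 18 chemokine ligands 1 rose (Cxcl10) and 1 fell (Ccl2), and 13 had a positive log2 fold change, with a median of 0.74. At an unadjusted p under 0.05, 10 were higher (55.6%, beside 9.18% of all genes) and 2 lower (11.1%, beside 8.58%). Ccl5, a chemokine for T cells and monocytes, had 2.45, 3.85 and 3.72 CPM in KO_CTR, against 0.657, 1.22 and 1.34 CPM in WT_CTR (log2 fold change 1.61, SE 0.34, adjusted p = 0.056). Of 14 inflammatory cytokine and inflammasome genes 0 passed by edgeR, 5 were higher and 1 lower at an unadjusted p under 0.05, and DESeq2 called 2. Il1b had 1.88, 3.52 and 1.699 CPM in KO_CTR, against 0.657, 0.692 and 1.03 CPM in WT_CTR (log2 fold change 1.55, SE 0.34, adjusted p = 0.0653). Of 14 NF-κB subunits and feedback inhibitors 0 passed by either tool, and 1 was higher at an unadjusted p under 0.05. Both calls were lost without WT_CTR replicate 1, WT_CTR replicate 2 or KO_CTR replicate 3, and that of Ccl2 also without KO_CTR replicate 1 or KO_4OI replicate 1.

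**Figure D5:**
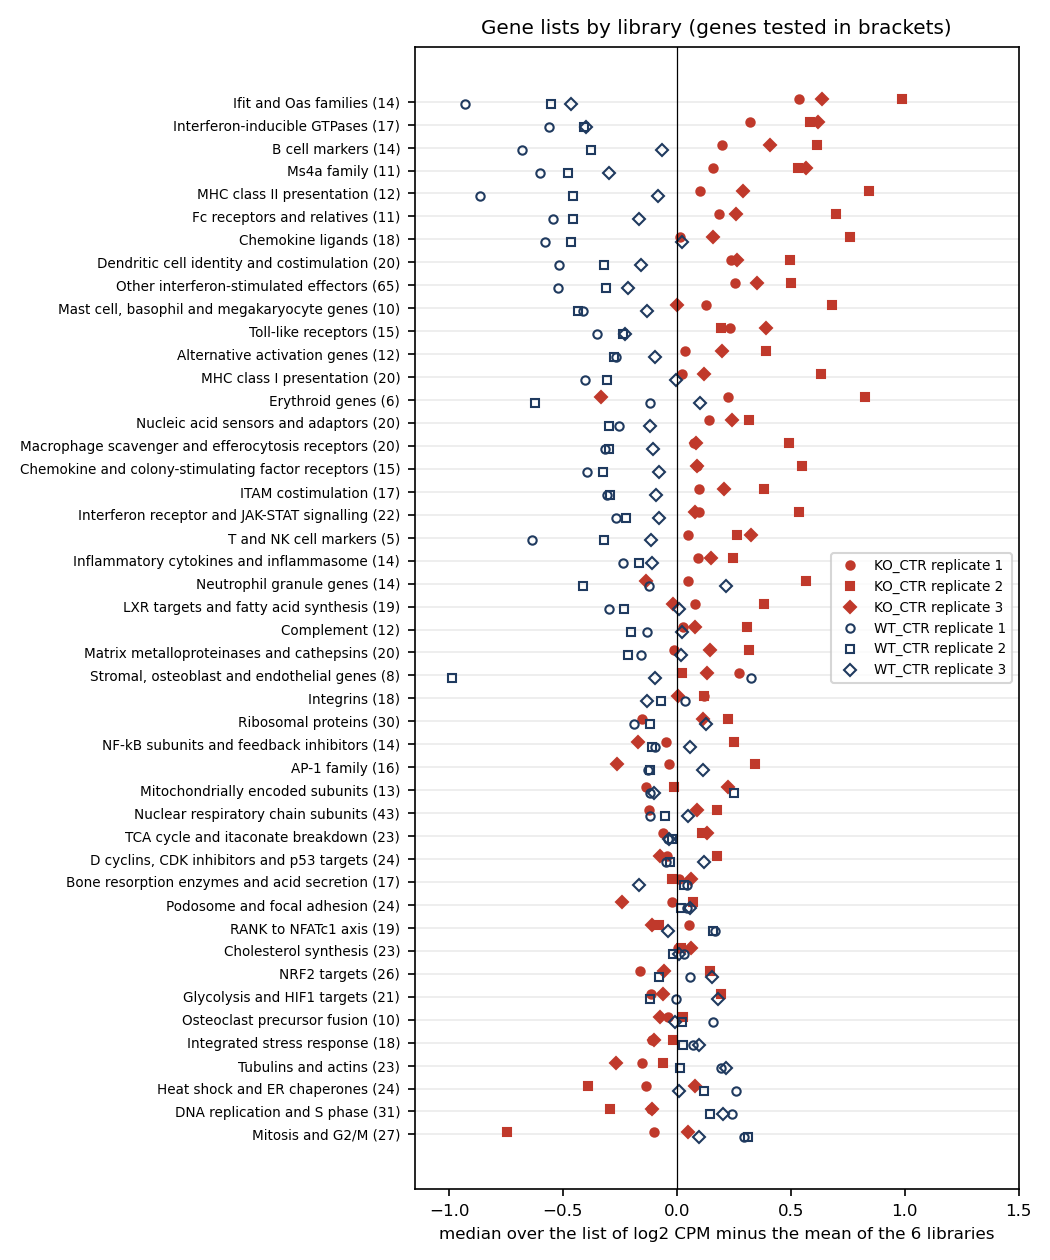
Each row is a gene list (genes tested in brackets), ordered by its median log2 fold change, and each point is the median over the list of log2 CPM minus the gene's mean over the 6 libraries, for KO_CTR (filled) and WT_CTR (open). The Ifit and Oas families separate the groups most (KO_CTR 0.53 to 0.99, WT_CTR -0.93 to -0.46), and KO_CTR replicate 2 and WT_CTR replicate 1 hold the extremes of many lists.

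Among the genes that did not pass, 20 were higher and 5 lower by at least 1 on the log2 scale at a mean of 20 CPM or more in KO_CTR or WT_CTR, without overlap. Tnfrsf1b, the second receptor for TNF, had 133, 245 and 114 CPM in KO_CTR, against 60.7, 56.9 and 89.6 CPM in WT_CTR (log2 fold change 1.25, SE 0.26, adjusted p = 0.0529). Selenop, the selenium carrier, had 65.1, 83.3 and 77.7 CPM in KO_CTR, against 23.7, 27.6 and 38.5 CPM in WT_CTR (log2 fold change 1.33, SE 0.28, adjusted p = 0.053). Hpgd, which inactivates prostaglandins, had 28.9, 31.6 and 33.1 CPM in KO_CTR, against 8.304, 11.4 and 14.9 CPM in WT_CTR (log2 fold change 1.43, SE 0.30, adjusted p = 0.0539). The adjusted p of each lay just above 0.05. Fgl2, Ifi27l2a, Dbp, Il10ra, Btg2, Ypel3 and Tmem176a were further genes of the higher side, with log2 fold changes between 1.02 and 1.58. On the lower side, Dusp4, a phosphatase of MAP kinases, had 34.4, 29.8 and 21.2 CPM in KO_CTR, against 64.6, 63.2 and 48.6 CPM in WT_CTR (log2 fold change -1.05, SE 0.24, adjusted p = 0.075). Mdn1 and Dkc1, which act in ribosome assembly, Flrt2 and Hells had log2 fold changes of -1.200, -1.16, -1.02 and -1.095.

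Neighbours of Acod1 on chromosome 14 were looked at as a group. Within 1 Mb 9 genes were tested, 0 passed by edgeR and 2 had an unadjusted p under 0.05 (22.2%, beside 17.8% of all genes tested). Kctd12, 64.3 kb away, was the 1 of these 9 without overlap, with 39.7, 31.9 and 29.97 CPM in KO_CTR, against 23.6, 27.6 and 23.8 CPM in WT_CTR (log2 fold change 0.44, SE 0.16, adjusted p = 0.2). Within 10 Mb 26 genes were tested and 0 passed by edgeR, with 7 at an unadjusted p under 0.05 (26.9%, beside 17.8%). Without overlap, 2 of the 26 lay above WT_CTR (7.69%, beside 10.2% of all genes) and 3 below (11.5%, beside 9.56%). With no low-count filter edgeR called 3 of the 26. DESeq2 called 0 of the 9 and 2 of the 26.

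Levels in KO_4OI are given for comparison only, since a contrast with that group would share libraries with the one described here. In KO_4OI, Acod1 had 4.95, 6.27 and 4.96 CPM. Among the interferon-stimulated genes, Ifit1bl1 had 0.2201, 0.112 and 0.0378 CPM, Rtp4 0.477, 0.5600 and 0.5297 CPM and Ifi209 13.3, 20.2 and 10.97 CPM. The first 2 of these lay below the WT_CTR levels, and Ifi209 lay above them. Of the 28 interferon-stimulated genes that rose, 25 had a KO_4OI mean below that of WT_CTR, and 28 had one below that of KO_CTR. Among the receptors, Pira2 had 39.5, 47.7 and 34.9 CPM and Clec7a 115, 177 and 87.9 CPM. Of the 16 receptor or antigen presentation genes, 9 had a KO_4OI mean below that of KO_CTR and 4 below that of WT_CTR. Both sets of genes were picked for high levels in KO_CTR, so their counts below KO_CTR are no separate result. Of the genes that fell in KO_CTR, Ccnd1 had 136, 86.99 and 169 CPM and Tubb6 231, 173 and 278 CPM.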

How the data were processed

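RNA-seq read counts were available for 9 libraries, 3 each of KO_CTR, WT_CTR and KO_4OI, grouped by their titles. The deposited values are raw counts per Ensembl gene. Per the submitters' processing notes, the authors used fastp, STAR and HTSeq 0.6.1 with the mm10 mouse genome. No version of STAR or fastp, no annotation release and no strand setting was stated in those notes. Without the strand setting, overlapping and antisense genes are uncertain, as are close paralogs. The table held 54532 genes, 28653 of them at 0 reads in every library. The 37 genes without a matched symbol held 0.00206% to 0.00377% of the reads. Library totals ran from 24830149 to 35143629 reads.

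Symbols and mm10 coordinates came from the GENCODE annotation provided, and promoters from RefSeq. Counts were fitted in edgeR 4.0.16 (R 4.3.3) with TMM scaling, filterByExpr at a minimum count of 10 and the quasi-likelihood test on all 9 libraries, which share 1 estimate of the spread. The contrast was KO_CTR minus WT_CTR, two-sided, with Benjamini-Hochberg adjustment over 14264 genes and a threshold of 0.05. Standard errors are the log2 fold change divided by the root of its F statistic. DESeq2 1.42.0, limma 3.58.1, other scalings and filters, and fits with libraries left out were alternatives. The 47 gene lists were described by counts and medians, with no test of a list. Members and lists were chosen with earlier results of these data known.

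Genes were named by rule. They were Acod1, every gene past the threshold, up to 4 genes of smallest p per list, up to 12 genes each way of large change that did not pass, and genes within 1 Mb of Acod1. Values per library were required for all lower genes and for the 16 higher genes of largest change with a mean of at least 5 CPM.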

Additional observations from a re-analysis of the deposited data

Results flagged for a closer look

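Reads of Ifnb1, a gene with too few reads for the test, appeared in KO_CTR only: 9 reads over the 3 KO_CTR libraries (1, 5 and 3), against 0 reads in each WT_CTR library. A count of 0 allows up to 3 reads over the WT_CTR group, against which the 9 reads, taken as counted, came to a ratio of 3.35 after scaling to library size. With the counting error of those reads included, the pooled KO_CTR reads were at least 2.204-fold higher (lower Clopper-Pearson 95% bound, counting error alone). That bound leaves out the spread between libraries. An exact two-sided permutation test of the 3 against 3 libraries gave p = 0.1, the smallest p this design allows. Ifnb1 had the most reads in KO_CTR of the 19 interferon genes looked up.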

How the results depend on the processing

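The number of genes past the threshold (74: 67 higher, 7 lower) depended strongly on the processing. Upper-quartile scaling gave 144 (137 higher), no low-count filter 879 (582 higher, 297 lower), a filter at a mean of 5 CPM 29 (28 higher, 1 lower) and DESeq2 591 (441 higher, 150 lower). RLE scaling gave 90, limma-trend 58 and the 6 libraries of the comparison alone 61, with 45 of the 74 genes among them. Leaving out the libraries with Xist reads gave 5 (5 higher, 0 lower), Xist reads as a covariate 4 (4 higher, 0 lower), and leaving out WT_CTR replicate 3 and KO_CTR replicate 2 together 399 (337 higher, 62 lower). Over the 9 fits without 1 library the count ran from 0 to 247, with 0 to 225 higher and 0 to 31 lower. Acod1 passed without a low-count filter (log2 fold change 1.09, adjusted p = 0.0071 by edgeR) and by DESeq2 (1.10, adjusted p = 0.0404), and ran from 0.74 to 1.46 without 1 library. Of the 26 genes within 10 Mb of Acod1, 3 passed with no low-count filter, 2 by DESeq2, 1 with WT_CTR replicate 3 and KO_CTR replicate 2 both left out, and 0 to 1 without 1 library; these counts were added after seeing the data. None of the 74 genes nor Acod1 changed sign, and 8 lists with medians near 0 did so in 26 alternatives in all. Adding the replicate number as a block left 6 genes past the threshold (6 higher, 0 lower). Same-numbered libraries of KO_CTR and WT_CTR deviated together with r = 0.32, -0.26 and -0.36, and 1 of the 3 KO_CTR libraries correlated best with its own number, so the numbers were not taken to pair the samples. Apart from the alternatives' own construction, the causes of these differences were not tested. Genes with few reads, such as Tnfsf4 and the interferon genes, were limited by depth.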
